A study of Mus musculus with 14 samples.

Results

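The 8 genes described here encode fatty acid desaturases (Scd1, Scd2, Fads1, Fads2) and fatty acid elongases (Elovl1, Elovl2, Elovl3, Elovl5), measured in mouse liver. They were chosen by name, with earlier results of these data known. Every probe on the array that matched one of them by its gene name or current symbol was taken. This gave 9 probes for 8 of the 36093 genes on the array, 1 probe for each gene and 2 for Elovl5. That total, like the number tested, also counts names in the files that were matched to no known gene. All 8 genes were among the 32673 tested. The mice were male C57BL/6 animals aged 1 year, fed without restriction. In 4 mice the AIN-93G diet was modified to give 60% of calories from fat and carried 0.04% resveratrol, a plant polyphenol (resveratrol mice), in 5 mice the diet had the same fat content without the polyphenol (high-calorie mice), and 5 mice had the unmodified AIN-93G standard diet (standard-diet mice). Each array held the Cy3-labelled RNA of 1 liver beside a Cy5-labelled pool of 5 standard-diet livers, and values are given as log2 ratios, animal over pool. The dyes were not swapped, so a value above 0 in standard-diet mice includes any dye effect of that probe, which is shared by all arrays and drops out of differences between diets.

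Desaturases put double bonds into fatty acids and elongases lengthen them, both at the endoplasmic reticulum and both on acyl-CoA esters. Scd1 and Scd2 make monounsaturated fatty acids such as oleate from saturated ones, and Scd1 is the main form in adult mouse liver. Fads2 and Fads1 act in turn on the essential fatty acids linoleate and alpha-linolenate, with Elovl5 lengthening the product of Fads2 before Fads1 acts on it, and Elovl2 lengthening the later intermediates on the way to docosahexaenoic acid (DHA). Elovl1 and Elovl3 lengthen saturated and monounsaturated acids, and in mouse liver Elovl3 is expressed more in males than in females and varies with the time of day. Several of these genes, Scd1, Fads1, Fads2 and Elovl5 among them, are textbook targets of SREBP-1c, the liver X receptor or PPAR-alpha, and dietary polyunsaturated fat is known to lower several of them.

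Whole-liver RNA cannot show whether a difference comes from the number of cells of a type or from the RNA in each cell. All 9 probes were well above background on 14 of 14 arrays in both channels, and none was saturated. The median net Cy3 signal was 65.9 to 100.2 intensity units in resveratrol mice, 57.7 to 114 in high-calorie mice and 48.6 to 85.6 in standard-diet mice, ranges that overlap. The images were processed on 2 days and the slide numbers fell into 2 series. Day 1 held all 4 resveratrol arrays, high-calorie replicates 1 and 4 and standard-diet replicates 1, 3 and 4, and slide series 1 held resveratrol replicates 1, 3 and 4 and high-calorie replicates 1 and 4. Resveratrol replicate 3 and standard-diet replicate 5 stood apart from their groups over all genes, and counts of the 8 genes and of several lists are also given without both. The labels call the animals replicates, so the tests measure the spread between these mice.

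RefSeq promoter sequences (build GRCm38.p6) were at hand for 4 of the 8 genes, Fads2, Elovl1, Elovl2 and Elovl5. The 250 bases before the start site of Elovl5 (chr9:77917115-77917364, plus strand) and of Fads2 (chr19:10101504-10101753, minus strand) are shown because these genes of one pathway, on different chromosomes, both rose on the high-calorie diet. Both are written 5′ to 3′ along the gene, with matches in capitals to CCAAT (the NF-Y motif), GGGCGG (the Sp1 motif), CACGTG (an E-box) or TCACNCCAC (an SREBP motif), searched on both strands.
Elovl5: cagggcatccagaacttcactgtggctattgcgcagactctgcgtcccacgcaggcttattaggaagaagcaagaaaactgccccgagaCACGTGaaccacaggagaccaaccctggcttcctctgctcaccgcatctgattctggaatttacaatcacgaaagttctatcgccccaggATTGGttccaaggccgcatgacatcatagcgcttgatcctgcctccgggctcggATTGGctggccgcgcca
Fads2: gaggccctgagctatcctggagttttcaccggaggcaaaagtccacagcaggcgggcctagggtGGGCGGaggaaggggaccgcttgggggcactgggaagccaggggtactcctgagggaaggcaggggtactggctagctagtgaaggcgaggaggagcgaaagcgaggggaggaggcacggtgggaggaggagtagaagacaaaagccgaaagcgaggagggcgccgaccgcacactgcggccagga
The Elovl5 window held 2 NF-Y matches, starting 71 and 17 bases before the start site, and 1 E-box at 161 bases, and the Fads2 window held 1 Sp1 match at 186 bases. Of the 32851 promoters in the table, 33.8% had the NF-Y motif, 32.7% the Sp1 motif, 6.02% the E-box and 1.05% the SREBP motif in the same window. The SREBP letters were in neither window. Elovl1 and Elovl2, which did not pass the test for that diet, are not shown. The window of the first start site of Elovl1 held 1 NF-Y and 5 Sp1 matches, and that of Elovl2 held 5 Sp1 matches. At their second start sites Elovl1 had 2 Sp1 matches and Elovl2 had 0. Whether the motifs had a part in the differences between diets was not tested. A match describes the sequence and is not a binding site.

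The first comparison asked what the high-calorie diet did to these transcripts. On the high-calorie diet, Elovl5, Fads2 and Fads1 of the polyunsaturated pathway rose, while Elovl2 of the same pathway did not pass the test. Of the stearoyl-CoA desaturases, Scd2 rose by a small amount and Scd1 did not pass. Elovl3 fell, and Elovl1 did not pass. In all, 5 of the 8 genes passed, 4 higher and 1 lower, where 9.44% of the 32673 genes tested passed. The 8 genes and the lists below were chosen with earlier results of these data known, so such counts are a description and not a test. The median difference was 0.27 over the 8 genes and -0.0021 over all genes tested.

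**Figure D1:**
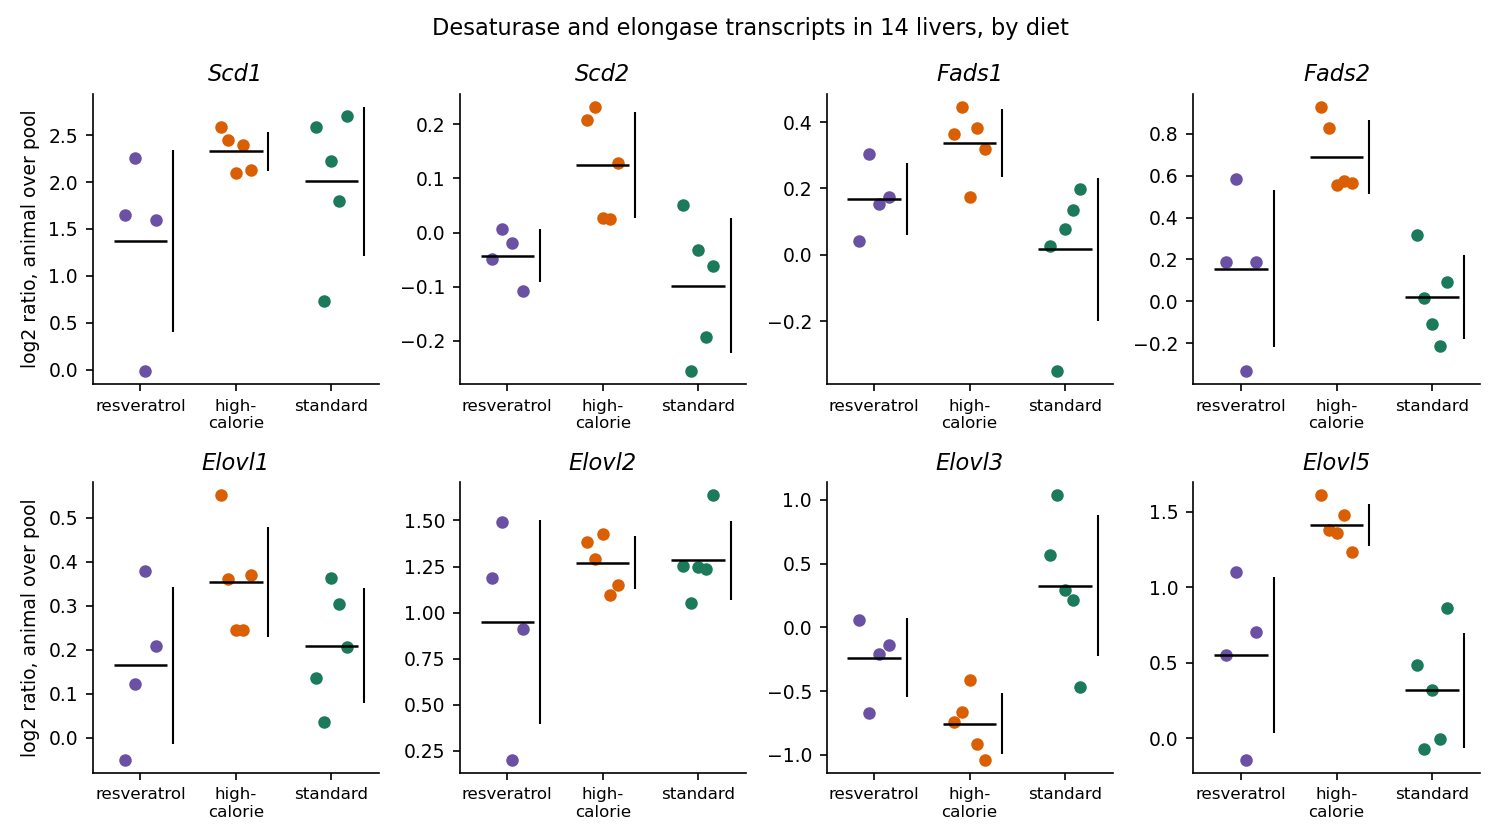
Log2 ratio of animal to pool for the 8 genes, 1 panel a gene with its own vertical scale. Points are the 4 resveratrol, 5 high-calorie and 5 standard-diet livers, horizontal bars the means and vertical lines 1 SD on each side. The high-calorie points of Elovl5 (1.23 to 1.61) and Fads2 (0.56 to 0.93) lie above all standard-diet points.

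Elovl5, the elongase between the Fads2 and Fads1 steps, had log2 ratios of 1.61, 1.38, 1.36, 1.48 and 1.23 in high-calorie mice, against 0.48, -0.07, 0.32, -0.01 and 0.87 in standard-diet mice. Every high-calorie liver lay above every standard-diet liver. The difference was 1.10 ± 0.20 (SE, log2), a 2.14-fold rise (95% interval 1.58 to 2.90, adjusted p = 0.00582). The second Elovl5 probe gave 1.69 ± 0.16 (SD, n = 5) in high-calorie mice and 0.66 ± 0.39 (SD, n = 5) in standard-diet mice, a difference of 1.03 with an adjusted p of 0.00758. Both probes thus separated the diets without overlap.

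Fads2, the desaturase of the first step, had log2 ratios of 0.93, 0.83, 0.56, 0.58 and 0.56 in high-calorie mice, against 0.31, 0.02, -0.11, -0.21 and 0.09 in standard-diet mice. These groups did not overlap either. The rise was 0.67 ± 0.14 (SE, log2), or 1.59-fold (1.29 to 1.97, adjusted p = 0.0123). Fads1, the desaturase of the later step, had 0.37, 0.45, 0.17, 0.38 and 0.32 in high-calorie mice, against 0.03, -0.35, 0.08, 0.13 and 0.20 in standard-diet mice. Of the high-calorie livers 4 lay above all standard-diet livers and 1 lay among them. Fads1 rose by 0.32 ± 0.09 (SE, log2), or 1.25-fold (adjusted p = 0.0400; 0.18 without background subtraction and 0.26 with an adjusted p of 0.280 in the Cy3 channel alone), and the call depended on single mice, since 7 of the 10 fits that left out 1 mouse had an adjusted p from 0.0518 to 0.0914. The Fads1 and Fads2 genes lie close together, at chr19:10182877-10196874 and chr19:10062765-10101503 in GRCm38.p6.

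Elovl2, the elongase of the later intermediates, had 1.39, 1.29, 1.43, 1.10 and 1.15 in high-calorie mice, against 1.25, 1.05, 1.25, 1.23 and 1.64 in standard-diet mice. The groups lay over each other, with a difference of -0.01 (95% interval -0.41 to 0.38 on the log2 scale, adjusted p = 0.972). The difference between Elovl2 and Elovl5 on the same array was -0.14 ± 0.17 (SD, n = 5) in high-calorie mice and 0.97 ± 0.21 (SD, n = 5) in standard-diet mice. It was lower in each high-calorie liver than in any standard-diet liver, and the shift of -1.11 had an exact permutation p of 0.00794, the smallest that 5 against 5 arrays allow, and an adjusted p of 0.0476 over 12 such tests. The differences of these 2 elongases between diets were thus unequal, although with any 1 mouse left out the adjusted p was 0.0635 to 0.0952, where fewer arrays allow only larger p-values. With the mean of both Elovl5 probes it was 0.0635.

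Scd1, the main stearoyl-CoA desaturase of the liver, had log2 ratios of 2.58, 2.45, 2.10, 2.39 and 2.12 in high-calorie mice, against 2.58, 0.73, 2.22, 1.80 and 2.70 in standard-diet mice. Standard-diet livers spread over a wider range (SD 0.79, n = 5) than high-calorie livers (SD 0.21, n = 5), a difference in spread that was not tested. The difference in means was 0.32 ± 0.40 (SE, log2; 95% interval -0.53 to 1.17, adjusted p = 0.635), and it was 0.0019 without standard-diet replicate 2. A 2-fold rise of Scd1 in the means therefore lies inside the interval, while a 2-fold fall lies outside it.

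Scd2, a stearoyl-CoA desaturase best known from brain, had 0.21, 0.23, 0.03, 0.03 and 0.13 in high-calorie mice, against 0.05, -0.26, -0.03, -0.19 and -0.06 in standard-diet mice. Of the high-calorie livers 3 lay above all standard-diet livers. Scd2 rose by 0.22 ± 0.06 (SE, log2), or 1.17-fold (adjusted p = 0.0357). The size of that rise depended on the processing: it was 0.0739 without background subtraction and 0.0708 in the Cy3 channel alone, where it did not pass (adjusted p = 0.641), nor did it in the deposited scores (0.713). Its net Cy3 signal was 52.8 to 164 intensity units, and 6 of the 10 fits that left out 1 mouse had an adjusted p from 0.0557 to 0.0874. Of 9 stellate cell markers tested, 5 rose and 1 fell in the same comparison, beside the 9.44% of all genes. With median centring or in the Cy3 channel alone 3 rose and 0 fell, and in the deposited scores 2 of 8 rose, where 3032, 877 and 441 of all genes passed. The mean log2 ratio of the stellate cell markers was 0.15 to 0.27 in high-calorie mice and -0.07 to 0.14 in standard-diet mice. Of 12 Kupffer cell and macrophage markers 0 passed by limma (5 at an unadjusted p under 0.05), and their mean was -0.44 to -0.19 in high-calorie mice and -0.79 to -0.50 in standard-diet mice. The part of these cells in the Scd2 difference was not tested. Scd1 and Scd2 are close paralogs at neighbouring positions, chr19:44394450-44407709 and chr19:44293676-44306864, and their probes are open to cross-hybridisation with each other and with the other members of the Scd family.

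Elovl3, the elongase with male-biased expression in mouse liver, had log2 ratios of -0.74, -0.66, -0.42, -0.92 and -1.04 in high-calorie mice, against 0.57, 1.04, 0.29, 0.21 and -0.47 in standard-diet mice. Of the high-calorie livers 4 lay below all standard-diet livers, and the overlap came from standard-diet replicate 5. Elovl3 fell by 1.08 ± 0.22 on the log2 scale, a level 2.12-fold lower (95% interval 1.52 to 2.95, adjusted p = 0.00957), and by 0.68 with median centring in place of loess (adjusted p = 0.0150). Elovl1, an elongase of saturated and monounsaturated acids found in most tissues, had 0.55, 0.36, 0.24, 0.24 and 0.37 in high-calorie mice, against 0.14, 0.04, 0.36, 0.30 and 0.21 in standard-diet mice. Its groups overlapped and the difference was 0.15 ± 0.08 (SE, log2; adjusted p = 0.277). The difference between Elovl3 and Elovl1 on the same array was -1.11 ± 0.29 (SD, n = 5) in high-calorie mice and 0.12 ± 0.63 (SD, n = 5) in standard-diet mice, a shift of -1.23 (exact permutation p = 0.0159, adjusted p = 0.0476). With any 1 mouse left out that adjusted p was 0.0635 to 0.0952.

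**Figure D2:**
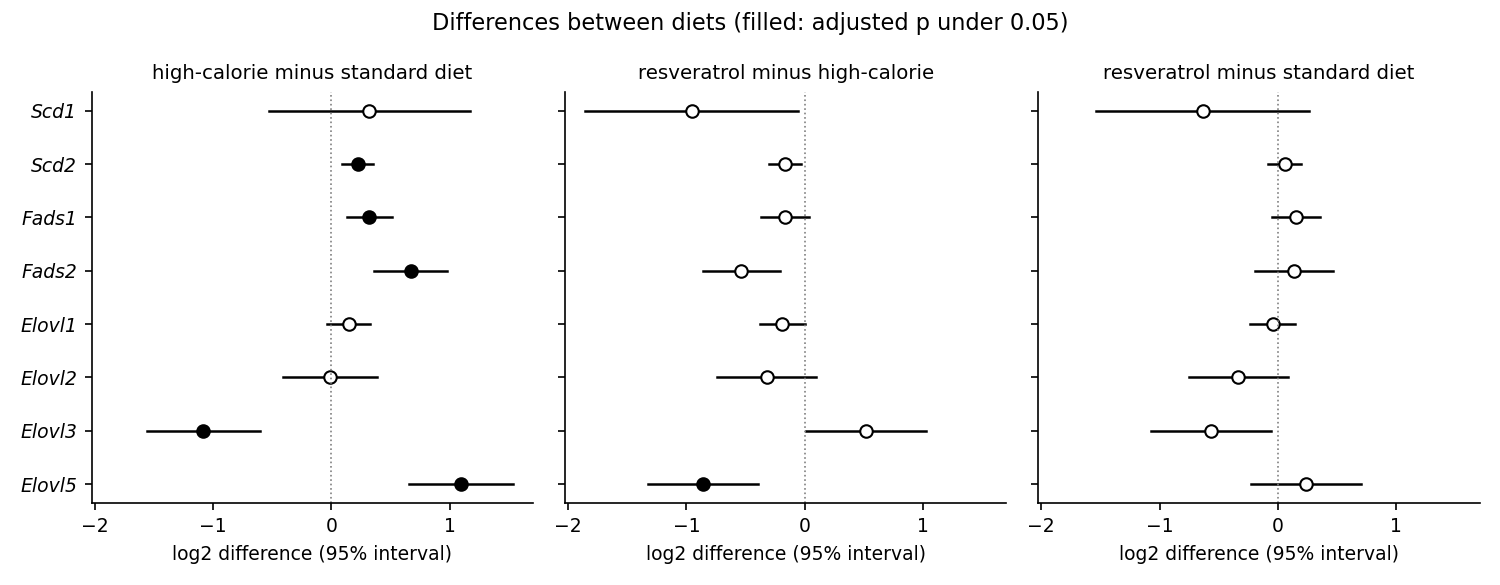
Differences in log2 ratio between diets for the 8 genes, with 95% intervals from limma, in 3 panels. Filled points passed at an adjusted p under 0.05, which were 5 genes for high-calorie minus standard diet, 1 for resveratrol minus high-calorie and 0 for resveratrol minus standard diet.

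The directions of the 5 genes that passed were the same on each processing day and within slide series 2. Within day 1, day 2 and slide series 2 the log2 difference was 1.28, 0.93 and 1.01 for Elovl5, 0.75, 0.60 and 0.63 for Fads2 and -1.19, -0.99 and -1.03 for Elovl3. With a block for slide series 3 of the 8 passed (Elovl5, Fads2 and Elovl3), and with Cy3 brightness as a covariate 1 did, Elovl5 (1.00, adjusted p = 0.0392), while the differences of Fads2 and Elovl3 were 0.66 and -0.92 (adjusted p = 0.0563 and 0.0631). Without both arrays that stood apart 5 of the 8 passed, and 3 passed without standard-diet replicate 3 or 4 or without high-calorie replicate 1, 2 or 5, with Elovl5, Fads2 and Elovl3 past the threshold in each of these fits. Over all genes, 6672 passed without both arrays that stood apart, 1874 with the slide series block and 858 with the brightness covariate, against 3083 as reported.

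The second comparison asked what resveratrol changed on the high-calorie diet. Elovl5 fell, and it was the only one of the 8 genes that passed, where 5.39% of all genes tested passed. Without both arrays that stood apart 1 of the 8 passed, where 1274 of all genes passed, against 1760 as reported. At an unadjusted p under 0.05 by limma there were 5 of the 8, namely Elovl5, Fads2, Scd2, Scd1 and Elovl3. Over all genes there were 7243 of the 32673 tested. The median difference was -0.26 over the 8 genes and -0.0068 over all genes tested. The high-calorie arrays served in both comparisons, so the 2 sets of differences share those mice and are not independent of each other.

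Elovl5 had log2 ratios of 0.55, 1.10, -0.14 and 0.70 in resveratrol mice, against 1.61, 1.38, 1.36, 1.48 and 1.23 in high-calorie mice. All 4 resveratrol livers lay below all 5 high-calorie livers, and replicate 3 was the lowest. Elovl5 fell by 0.86 ± 0.22 on the log2 scale, a level 1.81-fold lower (95% interval 1.31 to 2.51, adjusted p = 0.0365). The second probe had 0.62, 1.34, 0.18 and 0.91 in resveratrol mice, against 1.94, 1.71, 1.63, 1.65 and 1.52 in high-calorie mice, a difference of -0.93 (adjusted p = 0.0265). The call was close to its threshold. Without resveratrol replicate 3 the difference was -0.63 with an adjusted p of 0.0866, and in 7 of the 9 fits that left out 1 mouse the adjusted p was 0.0616 to 0.103. Within day 1 the difference was -0.99 (adjusted p = 0.270) and within slide series 1 it was -1.17 (0.262), while with day or slide series as a block the adjusted p was 0.0988 or 0.0912.

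Fads2 had 0.19, 0.58, -0.33 and 0.19 in resveratrol mice, against 0.93, 0.83, 0.56, 0.58 and 0.56 in high-calorie mice. Of the resveratrol livers 3 lay below all high-calorie livers. The difference of -0.54 ± 0.15 (SE, log2) had an adjusted p of 0.0558 over all genes tested, 0.139 without resveratrol replicate 3 and 0.0251 without resveratrol replicate 2. Fads1 had 0.04, 0.31, 0.15 and 0.17 in resveratrol mice and overlapped with the high-calorie range of 0.17 to 0.45, with a difference of -0.17 ± 0.10 (SE, log2; adjusted p = 0.321).

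Elovl2 had 1.19, 1.49, 0.20 and 0.91 in resveratrol mice, against a high-calorie range of 1.10 to 1.43. Its difference was -0.32 (95% interval -0.74 to 0.10, adjusted p = 0.362), and it was -0.07 without replicate 3. The difference between Elovl2 and Elovl5 on the same array was 0.40 ± 0.18 (SD, n = 4) in resveratrol mice, against -0.14 ± 0.17 (SD, n = 5) in high-calorie mice, and the groups did not overlap. The shift was 0.54 (exact permutation p = 0.0159, the smallest possible with 4 against 5 arrays, adjusted p = 0.0476), and the adjusted p was 0.0612 to 0.107 with any 1 mouse left out and 0.0635 with the mean of both Elovl5 probes. The difference between Fads1 and Fads2 on the same array was 0.01 ± 0.33 (SD, n = 4) in resveratrol mice and -0.35 ± 0.14 (SD, n = 5) in high-calorie mice, with an exact permutation p of 0.0476 and an adjusted p of 0.0952.

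**Figure D3:**
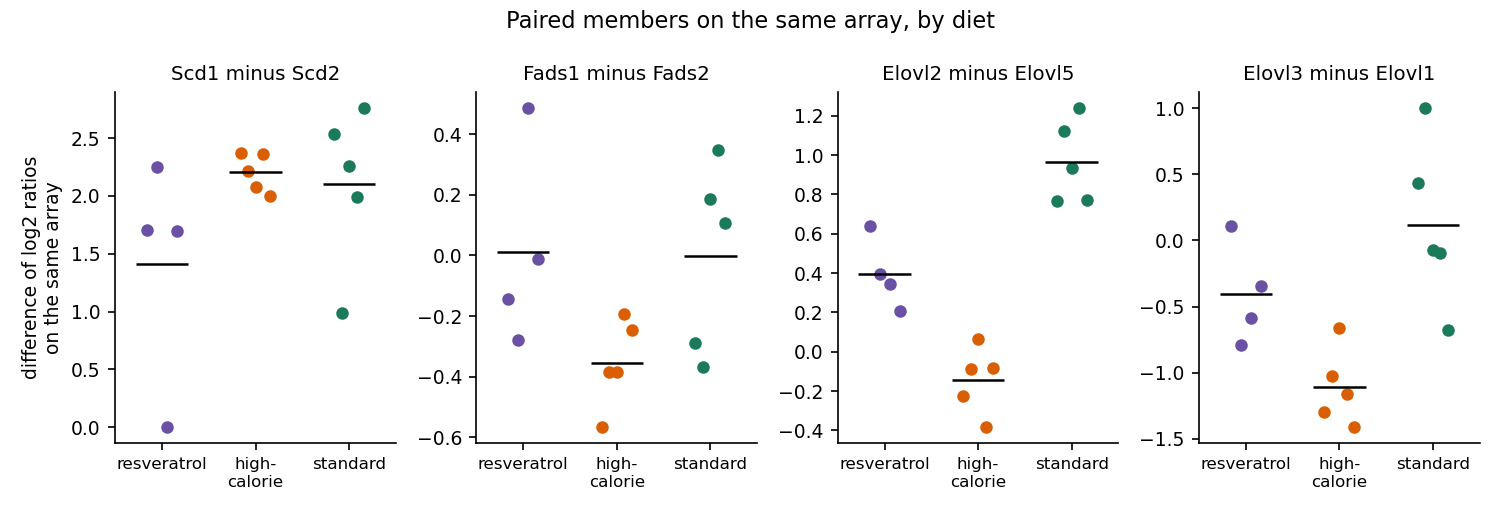
Differences between log2 ratios of 2 genes on the same array, by diet, with 1 point a liver and bars at the means. For Elovl2 minus Elovl5 the 3 diets lie apart, at 0.21 to 0.64 in resveratrol mice, -0.38 to 0.07 in high-calorie mice and 0.77 to 1.24 in standard-diet mice. Because the probes differ, the diets can be compared within a panel but the height of a panel has no meaning of its own.

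Scd1 had log2 ratios of 1.65, 2.26, -0.01 and 1.59 in resveratrol mice, against 2.58, 2.45, 2.10, 2.39 and 2.12 in high-calorie mice. Of the resveratrol livers 3 lay below all high-calorie livers, and replicate 2 lay among them. The mean difference was -0.96 ± 0.42 (SE, log2; 95% interval -1.86 to -0.06, adjusted p = 0.198), and it was -0.49 without resveratrol replicate 3. Scd2 had -0.05, 0.01, -0.02 and -0.11 in resveratrol mice, all below the high-calorie range of 0.03 to 0.23, yet its difference of -0.17 ± 0.06 (SE, log2) did not pass over all genes (adjusted p = 0.144). In the Cy3 channel alone the Scd2 difference was 0.0027. The stellate cell markers had a mean of -0.10 to 0.13 in resveratrol mice, against 0.15 to 0.27 in high-calorie mice, and 4 of 9 fell, beside the 5.39% of all genes. With median centring 2 of the 9 fell and in the Cy3 channel alone 1 did, where 120 and 82 of all genes passed.

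Elovl3 had 0.06, -0.67, -0.21 and -0.14 in resveratrol mice, against -0.74, -0.66, -0.42, -0.92 and -1.04 in high-calorie mice. Of the resveratrol livers 3 lay above all high-calorie livers. The difference of 0.52 ± 0.24 (SE, log2; 95% interval 0.01 to 1.02) had an adjusted p of 0.214. Elovl1 had -0.05, 0.12, 0.38 and 0.21 in resveratrol mice, against 0.24 to 0.55 in high-calorie mice, and a difference of -0.19 ± 0.09 (SE, log2; adjusted p = 0.228).

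The third comparison asked how far resveratrol mice still differed from standard-diet mice. By limma 0 of the 8 genes passed, where 0.214% of all genes tested passed. An unadjusted p under 0.05 was found for 1 of the 8, and for 3466 of the 32673 genes tested. That gene was Elovl3, at -0.24 ± 0.31 (SD, n = 4) in resveratrol mice and 0.33 ± 0.55 (SD, n = 5) in standard-diet mice, a difference of -0.57 ± 0.24 (SE, log2; adjusted p = 0.419). Elovl5 differed by 0.24 (95% interval -0.23 to 0.70), Fads2 by 0.13 (-0.19 to 0.46) and Scd1 by -0.64 (-1.54 to 0.26), so the intervals of Elovl5 and Scd1 include differences of more than 1.5-fold. The difference between Elovl2 and Elovl5 on the same array was 0.40 ± 0.18 (SD, n = 4) in resveratrol mice and 0.97 ± 0.21 (SD, n = 5) in standard-diet mice, without overlap, a shift of -0.57 (exact permutation p = 0.0159, adjusted p = 0.0476). The last adjusted p was 0.0612 to 0.107 with any 1 mouse left out, 0.0762 with the mean of both Elovl5 probes and 0.127 in the authors' deposited scores.

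Mice on the same diet also differed from each other in these genes, and the deviations from the diet mean were compared between genes over the 14 arrays. Of 28 pairs of genes, 4 had a Pearson correlation with an adjusted p under 0.05 in a permutation test within diets, and 5 a Spearman correlation. The number of correlated pairs depended on the scaling and was 13 with median centring. Such correlations were not computed for other genes, and all genes share the labelling and brightness of an array. Scd1 and Elovl5 had the highest correlation of the 28 pairs (r = 0.92, adjusted p = 0.00168; rho = 0.91, adjusted p = 0.00504; n = 14, permutation test). Without the 2 arrays farthest from the median of Scd1, r was 0.90, and within processing day 1 it was 0.98 (n = 9), while day 2 held only 5 arrays. Scd1 and Elovl2 had r = 0.83 (adjusted p = 0.0256) and rho = 0.77 (0.0289), and Elovl2 and Elovl5 had r = 0.86 (0.0264) and rho = 0.69 (0.0819), by the same permutation test. Without their 2 farthest arrays these r were 0.68 and 0.66, and within day 1 they were 0.93 and 0.88. Scd1 and Fads2 passed by the Spearman permutation test (rho = 0.82, adjusted p = 0.0262) but not by the Pearson one (r = 0.73, 0.114). Fads2 and Elovl5 likewise passed by the Spearman permutation test only (rho = 0.77, adjusted p = 0.0357, against r = 0.79, 0.0729).

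Fads1 and Elovl3 varied in opposite directions (r = -0.84, adjusted p = 0.0256; rho = -0.75, adjusted p = 0.0357; n = 14, permutation test). Their r was -0.72 without the 2 arrays farthest from the median of Fads1 and -0.95 within day 1 (n = 9). Resveratrol replicate 3 weighed on the tests. Without it 0 of the 28 pairs passed by the Pearson permutation test, with r = 0.85 for Scd1 and Elovl5 and r = -0.84 for Fads1 and Elovl3 (adjusted p = 0.0532 for both), and r = 0.64 for Scd1 and Elovl2. The count was 1 without resveratrol replicate 1 or 2, and 2 without standard-diet replicate 5.

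**Figure D4:**
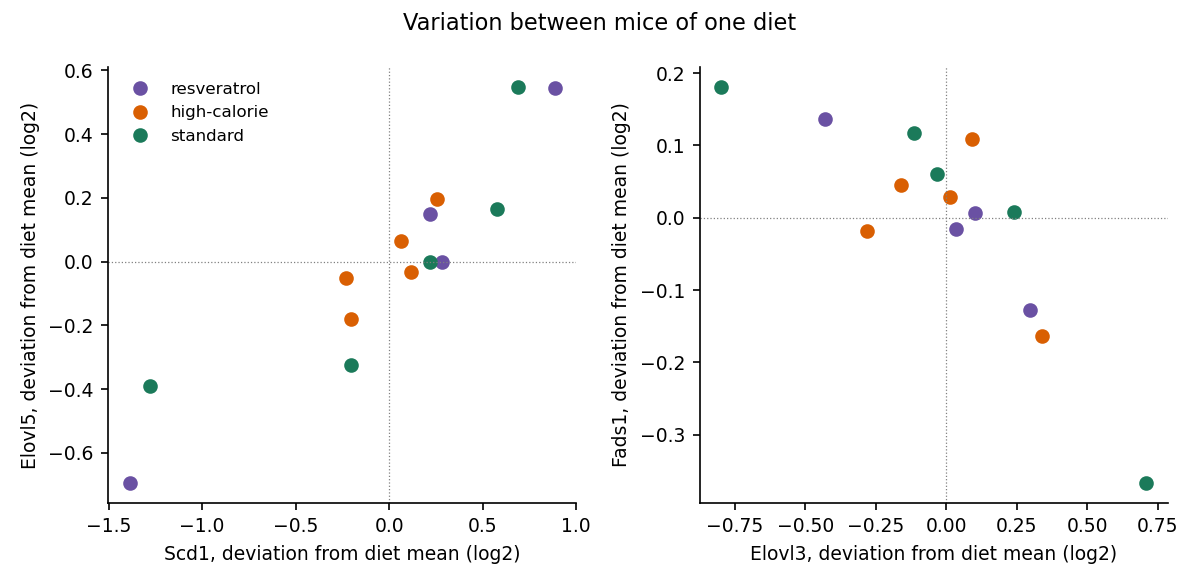
Deviations of single livers from the mean of their diet in log2 ratio, for Elovl5 against Scd1 (left, r = 0.92) and Fads1 against Elovl3 (right, r = -0.84), with 14 points coloured by diet. The lowest point of the left panel is resveratrol replicate 3.

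Over all 14 arrays, diets included, the gene most like Elovl5 in its log2 ratios was the retinol dehydrogenase gene Rdh16 (r = 0.97, the highest of 15050 genes with a matched symbol), followed by Mpc1, a subunit of the mitochondrial pyruvate carrier (r = 0.96). Rdh16 rose by 1.33 in high-calorie against standard-diet mice and fell by 1.10 in resveratrol against high-calorie mice (adjusted p = 0.00836 and 0.0376). Fads2 was most like the secreted phosphoprotein gene Spp2 (r = 0.96) and Pdk4, a kinase that switches off pyruvate dehydrogenase (r = 0.96). Fads1 was most like 2 mitochondrial genes, Ppa2, an inorganic pyrophosphatase (r = 0.97), and Tfam, which maintains mitochondrial DNA (r = 0.97). For the other genes the closest were Ndufb8 and Slc2a2 for Scd1 (r = 0.92 and 0.91), Fbln7 and Tgfbi for Scd2 (0.93 and 0.90), Dnajb2 and Fis1 for Elovl1 (0.95 and 0.93), Ghr and Abcg5 for Elovl2 (0.92 and 0.88), and Card10 and Olfr1220 for Elovl3 (0.96 and 0.95). Spearman rho was lower for the partners of Scd1 (0.76 and 0.69) and Elovl2 (0.66 and 0.51) than for those of the other 6 genes (0.85 to 0.97). These r are maxima over many genes and describe these 14 arrays, in which all genes share the labelling and brightness of an array.

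Of 19 other genes of desaturation and elongation tested, 3 rose and 0 fell in high-calorie against standard-diet mice by limma (7 at an unadjusted p under 0.05), beside the 9.44% of all genes, and their median difference was 0.07. Hsd17b12, the reductase of the second step of every elongation cycle, rose by 0.46 ± 0.07 (SE, log2; adjusted p = 0.000935). Cyb5a, the cytochrome that hands electrons to the desaturases, rose by 0.37 ± 0.08 (0.0154), and Hacd1, a dehydratase of the elongation cycle, by 0.14 ± 0.04 (0.0349). Elovl6, the elongase of palmitate, was at 0.45 ± 0.11 (SD, n = 5) in high-calorie mice and 0.44 ± 0.60 (SD, n = 5) in standard-diet mice, a difference of 0.0077. In resveratrol against high-calorie mice, where 5.39% of all genes passed, 1 of the 19 rose, the dehydratase gene Hacd3 by 0.34 ± 0.07 (SE, log2; adjusted p = 0.0144). Hacd3 was also higher than in standard-diet mice, by 0.51 ± 0.07 (0.00557). Elovl6 differed by -0.48 and Fads3, a related desaturase, by 0.17 between resveratrol and high-calorie mice, and neither passed (adjusted p = 0.252 and 0.0712).

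De novo lipogenesis makes palmitate for these enzymes. Of 8 of its genes tested, 0 rose and 1 fell in high-calorie against standard-diet mice, beside the 9.44% of all genes. Without both arrays that stood apart 2 rose and 1 fell, and in the Cy3 channel alone 0 passed. Of all genes 6672 and 877 passed in these settings, against 3083 as reported. Fasn, the fatty acid synthase gene, was at 0.73 ± 0.18 (SD, n = 5) in high-calorie mice and 0.98 ± 0.48 (SD, n = 5) in standard-diet mice, a difference of -0.25 that did not pass (adjusted p = 0.412). In resveratrol against high-calorie mice 0 of the 8 passed by limma (2 at an unadjusted p under 0.05), with Fasn at -0.36 (adjusted p = 0.322). In resveratrol against standard-diet mice 0 of the 8 rose and 1 fell, beside the 0.214% of all genes.

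Among 16 regulators of these genes, 3 rose and 0 fell on the high-calorie diet, beside the 9.44% of all genes. With median centring 3 rose, and with slide series as a block 2 did. In the Cy3 channel alone, in the deposited scores and with brightness as a covariate 1 rose. Over all genes, 3032, 1874, 877, 441 and 858 passed in these settings, in the order given. Insig2, which holds the SREBP precursors in the endoplasmic reticulum, had the largest rise of the 3 reported first, 1.32 ± 0.12 (SE, log2; 2.49-fold, adjusted p = 6.18e-05). Srebf2, of cholesterol synthesis, rose by 0.22 ± 0.05 (0.0131) and Ppara, the nuclear receptor of fatty acid oxidation, by 0.43 ± 0.12 (0.0413). Srebf1, the gene of SREBP-1c, was at 1.03 ± 0.21 (SD, n = 5) in high-calorie mice and 1.34 ± 0.44 (SD, n = 5) in standard-diet mice, a difference of -0.31 that did not pass (adjusted p = 0.300), and Insig1 differed by 0.01. In resveratrol against high-calorie mice Insig2 fell by 0.86 ± 0.13 on the log2 scale (adjusted p = 0.00577), Srebf1 differed by -0.30 (0.412) and Ppara by -0.21 (0.371), and 1 of the 16 passed, beside the 5.39% of all genes.

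Peroxisomal genes of the pathway, whose proteins shorten the last intermediate to DHA, rose in part. Of 10 tested, 6 rose and 0 fell in high-calorie against standard-diet mice, beside the 9.44% of all genes, with a median of 0.49. Acaa1a, a thiolase, rose by 0.73 ± 0.10 (SE, log2; adjusted p = 0.000643), Hsd17b4, the D-bifunctional protein, by 0.62 ± 0.10 (0.00161) and Ehhadh, the L-bifunctional protein, by 1.14 ± 0.25 (0.0127). With brightness as a covariate 3 of the 10 passed, and without both arrays that stood apart 8 rose and 1 fell. Over all genes, 858 and 6672 passed in these settings, against 3083 as reported. In resveratrol against high-calorie mice 0 of 10 passed by limma (5 at an unadjusted p under 0.05), and against standard-diet mice Acaa1a was higher by 0.63 (adjusted p = 0.0288). Of 13 acyl-CoA synthetase and acyltransferase genes that use the products, 0 passed by limma in each of the 3 comparisons, with 3, 0 and 3 at an unadjusted p under 0.05 for high-calorie against standard diet, resveratrol against high-calorie and resveratrol against standard diet.

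**Figure D5:**
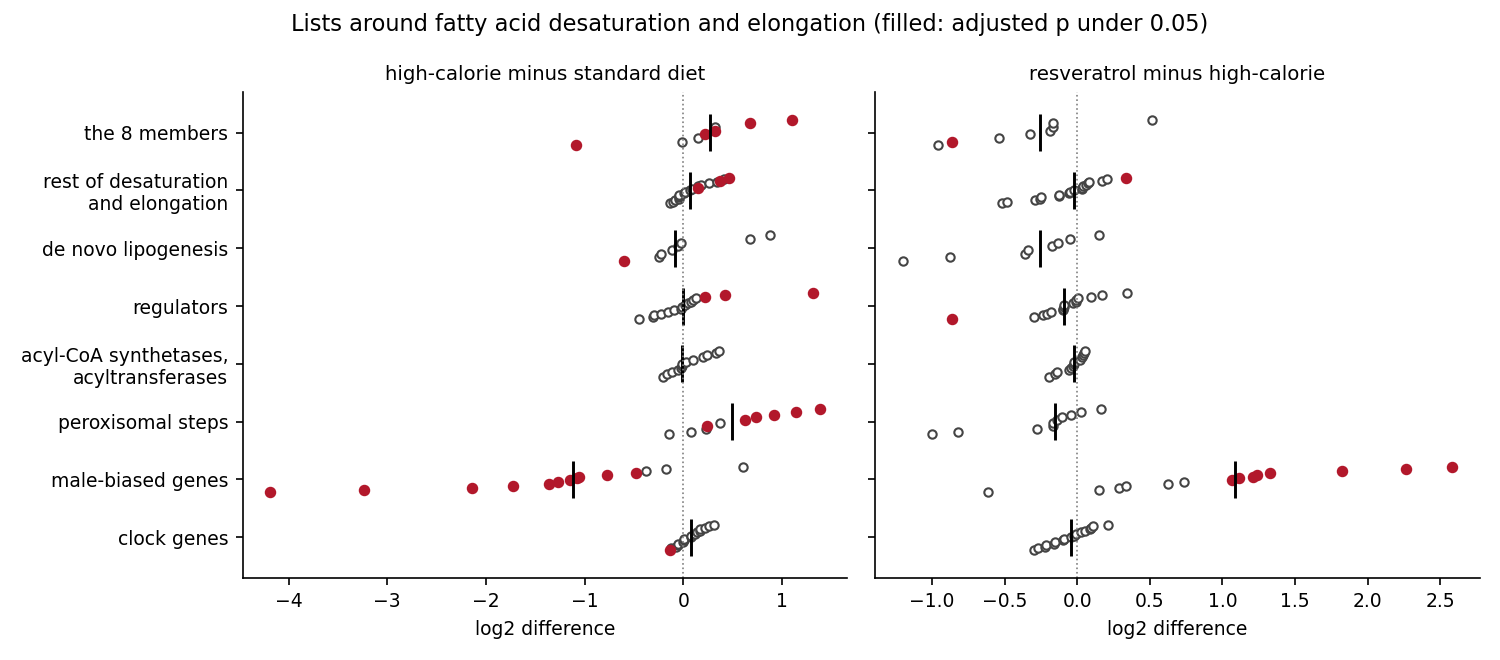
Log2 differences of single genes in the 8 genes described here and in 7 related lists, for high-calorie minus standard diet (left) and resveratrol minus high-calorie (right). Filled points passed at an adjusted p under 0.05 and bars are medians. The male-biased genes lie to the left in the first panel (median -1.12, 11 of 14 lower) and to the right in the second (median 1.09, 8 of 14 higher), and the panels share the high-calorie arrays.

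Elovl3 was set beside other genes that male mouse liver expresses more than female liver, and beside clock genes. These lists were chosen with earlier results of these data known, so their counts are a description and not a test. Whether male-biased expression or the clock had a part in the Elovl3 difference was not tested. Of 14 other male-biased genes tested, 11 fell and 0 rose in high-calorie against standard-diet mice, where 9.44% of all genes passed. Their median was -1.12 beside the -1.08 of Elovl3. With median centring 9 fell and 1 rose, with a median of -0.67 beside the -0.68 of Elovl3. Without both arrays that stood apart 12 fell and 1 rose (median -1.22, with 6672 of all genes past the threshold, against 3083 as reported). Their mean log2 ratio was -0.89 to -0.70 in high-calorie mice and 0.25 to 0.79 in standard-diet mice, without overlap. In resveratrol against high-calorie mice, where 5.39% of all genes passed, 8 of the 14 rose. Their median was 1.09 beside the 0.52 of Elovl3, which did not pass. With median centring 5 rose (median 0.76), and in the Cy3 channel alone 4 did (0.67), where 120 and 82 of all genes passed. The mean of the male-biased genes was -0.06 to 0.35 in resveratrol mice. Of 17 clock genes 1 fell on the high-calorie diet, Per2 by 0.13 (adjusted p = 0.0497), beside the 9.44% of all genes. With median centring 0 of 17 fell and 1 rose, and without both arrays that stood apart 1 fell and 3 rose, where 3032 and 6672 of all genes passed. In resveratrol against high-calorie mice 0 of the clock genes passed by limma (4 at an unadjusted p under 0.05). Nr1d1, the clock repressor, differed by 0.0013 on the high-calorie against the standard diet and by -0.10 between resveratrol and high-calorie mice. The sources used here do not give the time of day at which the livers were taken. The mean log2 ratio of the clock genes overlapped between diets, at -0.01 to 0.09 in resveratrol mice, 0.04 to 0.12 in high-calorie mice and -0.08 to 0.09 in standard-diet mice.

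Markers of hepatocytes, the main cell type of the liver, were well above background on 14 of 14 arrays for each of the 8 tested. Of these 8, 2 fell in high-calorie against standard-diet mice, beside the 9.44% of all genes. In resveratrol against high-calorie mice 1 of these 8 markers rose, beside the 5.39% of all genes. The mean log2 ratio of the hepatocyte markers was 0.79 to 1.15 in resveratrol mice, 0.29 to 0.75 in high-calorie mice and 0.83 to 0.98 in standard-diet mice. The lower level of the markers in high-calorie mice depended on the scaling. Their median difference from standard-diet mice was -0.51, but -0.0263 with median centring and -0.0582 in the Cy3 channel alone, with 0 of 8 passing by limma in both settings. For resveratrol against high-calorie it was 0.35, but 0.0900 with median centring and -0.14 in the Cy3 channel alone. Without both arrays that stood apart 4 of the 8 fell and 1 rose on the high-calorie diet, where 6672 of all genes passed, against 3083 as reported. The part of the hepatocyte share in the results was not tested. Of 9 adipocyte markers tested 3 rose (Cidea, Cfd and Fabp4) and 1 fell (Retn) on the high-calorie diet, beside the 9.44% of all genes. Adipoq, the adiponectin gene, differed by -0.09 and Plin1, which coats the fat droplets of adipocytes, by -0.08 (adjusted p = 0.634 and 0.144). The mean log2 ratio of the 9 adipocyte markers was 0.17 to 0.35 in high-calorie mice and -0.75 to -0.49 in standard-diet mice. The median difference of these 9 between the 2 diets was smaller, at 0.11, and it was 0.12 with median centring. It was -0.0210 when Cy3 was used by itself and -0.0316 in the authors' scores, where 3 of the 9 still rose in each. In resveratrol mice the mean was -0.30 to 0.47, and 1 of the 9 rose against high-calorie mice (0 with median centring). The part of adipocyte RNA in the results was not tested. In high-calorie against standard-diet mice 1 of 8 lymphocyte markers fell, 2 of 7 endothelial markers rose and 1 of 6 cholangiocyte markers rose, beside the 9.44% of all genes. In resveratrol against high-calorie mice 0 of these lymphocyte, endothelial and cholangiocyte markers passed by limma (1, 1 and 0 at an unadjusted p under 0.05). There 1 of 12 Kupffer cell and macrophage markers rose, beside the 5.39% of all genes. With median centring 1 of 8 lymphocyte markers rose and 0 fell on the high-calorie diet, and 3 of 12 Kupffer cell and macrophage markers rose, where 3032 of all genes passed.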

How the data were processed

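Per the file headers, Agilent Feature Extraction 7.5.1 wrote the deposited files of spot intensity, with the local background of both dyes. Per the labels' protocols, Qiagen RNeasy columns and linear amplification were used. A table deposited by the authors gives a score per probe, each column scaled to a common mean and spread. The sources used here do not say how it was made, so it served as an alternative only. The members and lists were chosen with earlier results of these data known.

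Mean signals were corrected by normexp (offset 50) and log2 ratios of animal to pool normalised by loess in each array, with the 2256 control spots at weight 0 and 576 flagged spots left out. Of 41174 probes, 20859 were matched to 1 gene of the GRCm38.p6 RefSeq table. The 20315 unmatched probes were kept under their names in the files. Each such name counts as a gene in the totals and in the shares of all genes. Scd1, Fads1 and the second Elovl5 probe were matched through accessions, since the files list them under older names. Each gene took its brightest probe, and a gene was tested if its Cy3 signal was well above background on 4 or more arrays. A model of the 3 diets was fitted to all 14 arrays in limma 3.58.1 (R 4.3.3), with Benjamini-Hochberg adjustment over the 32673 genes and a threshold of 0.05. "Rose", "fell" and "passed" refer to it. An unadjusted p under 0.05 by limma was found for 9025 genes in high-calorie against standard-diet mice. The number was 7243 in resveratrol against high-calorie mice and 3466 in resveratrol against standard-diet mice. Differences between 2 genes on an array were compared by two-sided exact permutation tests, adjusted over 12. Correlations of deviations from diet means used 100000 permutations within diets, two-sided, adjusted over 28 pairs (scipy 1.17.1, numpy 2.4.6, pandas 2.3.3, Python 3.11.15). The model was tested on simulated data.

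All 8 members were named, and from each list up to 4 passing genes with the smallest adjusted p per comparison or up to 2 as values where none passed. Elovl6, Fads3, Srebf1, Fasn, Insig1, Nr1d1 and Ppara could be named whatever their result, and so could the 2 genes most like each member. Some list genes are not reported here. The adipocyte genes Adipoq and Plin1 and the within-slide and brightness settings were chosen after the data were seen. The processing day is the day of image analysis, not of RNA purification, and slide series were made by cutting the sorted slide numbers at their largest gap. Alternatives covered background correction, normalisation, the Cy3 channel, the deposited scores, filters, probe choice, batches, brightness and each array left out. The number of arrays limits the precision. Over the 13 pairs of arrays with the same replicate number, deviations correlated at -0.19 to 0.30. Of the 14 arrays, 7 were closest to one with their own number. How many such matches would arise without pairing was not worked out, so these values do not settle whether mice were paired. The main model did not pair animals, and fits with the replicate block are given below.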

Additional observations from a re-analysis of the deposited data

How the results depend on the processing

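For high-calorie against standard diet, 5 genes passed as reported, 3 with the scanner's processed signals, the Cy3 channel alone, only the groups compared, slide series as a block or within day 1, 2 in the deposited scores or within slide series 2, 1 with brightness as a covariate and 0 within day 2, and 3 to 5 with each mouse left out. With the replicate block 4 passed. For resveratrol against high-calorie, where 1 passed, it was 2 without background subtraction or with the filter for all arrays, and 0 with an offset of 10, processed signals, median centring, Cy3 alone, the deposited scores, the replicate block (Elovl5 -0.81, adjusted p = 0.111), day or slide series as a block, within day 1 and within slide series 1, and 0 to 2 with each mouse left out. For resveratrol against standard diet it was 0 in every setting run. The cause of these changes was not tested. Among calls over all genes, high-calorie against standard diet, 79.0% were higher with median centring, against 56.9% as reported, and for resveratrol against high-calorie 25.8%, against 58.7%. The number of all genes called, high-calorie against standard diet, was 3083 as reported and 3032 with median centring. It was 877 in Cy3 alone, 441 in the deposited scores and 1874 with slide series as a block. With brightness as a covariate it was 858, and without both arrays that stood apart 6672. For resveratrol against high-calorie the numbers in the same order were 1760, 120, 82, 48, 672, 1649 and 1274.

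The Elovl2 difference, high-calorie against standard diet, turned to 0.0536 without background subtraction, 0.25 with median centring, 0.14 in Cy3 alone, 0.0182 in the deposited scores, 0.0131 with array weights, 0.11 with slide series as a block, 0.00701 within slide series 2 and 0.0753 without both arrays that stood apart, and ran from -0.0717 to 0.0753 with each mouse left out. Against standard diet in resveratrol mice, Elovl2 was at 0.00194 without both arrays and Elovl1 at 0.0734 with median centring, and with each mouse left out Elovl1 ran from -0.116 to 0.0268 and Fads2 from -0.00807 to 0.298. Scd2, resveratrol against high-calorie, was at 0.0027 in Cy3 alone and 0.0064 in the deposited scores. None of these values passed in either form.

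Of the differences on the same array, Elovl2 minus Elovl5 with the mean of the probes of a gene was -1.08 for high-calorie against standard diet, 0.57 for resveratrol against high-calorie and -0.50 for resveratrol against standard diet, and in the deposited scores the last 2 were 0.24 and -0.24, none past the threshold. With each mouse left out they ran from -1.16 to -1.04, 0.46 to 0.60 and -0.65 to -0.50. Elovl3 minus Elovl1, high-calorie against standard diet, was still -1.23 with the mean of the probes, since each gene has 1 probe, and its adjusted p of 0.0635 there comes from the other tests in the adjustment. It was -1.43 to -1.01 with each mouse left out. Fads1 minus Fads2 passed for high-calorie against standard diet without background subtraction (-0.34) and with median centring (-0.44), and for resveratrol against high-calorie with median centring (0.41). For resveratrol against standard diet it turned to -0.0181 and -0.0302 in these 2 settings, and ran from -0.14 to 0.11 with each mouse left out. Scd1 minus Scd2, high-calorie against standard diet, was -0.0219 with processed signals and -0.18 to 0.26 with each mouse left out. The number of correlated pairs was 13 with median centring and 0 to 6 with each mouse left out.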
